A study of Mus musculus with 32 samples.

Results

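Gene expression was compared between germ cells of mice at 12 days post-partum (dpp) and at 10 dpp, an interval named here for the arrival of zygotene spermatocytes. The samples were chosen by age alone. They were 10 of the 32 samples of the series, with 5 mice at each of the ages 10 and 12 dpp. All genes of the deposited gene table were tested, which were the 20368 of 85539 genes with a level of at least 3 TPM in at least 1 of 28 juvenile mice. The mice were C57BL/6J males, and no genotype, allele or treatment set them apart other than age. Each sample held the germ cells from the testes of 1 mouse, taken after the seminiferous tubules had been digested with Liberase and washed to remove interstitial cells, and its poly-A RNA was sequenced. The other samples were juvenile mice of 8, 14, 16 and 18 dpp, and 4 samples of adult spermatocytes enriched for pachytene and diplotene cells, each pooled from 6 mice. Sequencing depth cannot be told from TPM, and the spread between the 5 mice of an age stands as the error throughout. Between any 2 mice of the same age, the values of the genes on a log2 scale were correlated with Pearson's r between 0.9747 and 0.9834, where genes do not count as independent observations.

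In meiotic prophase, leptotene spermatocytes build protein axes along their chromosomes and cut their DNA with the SPO11 complex. In zygotene cells the homologous chromosomes pair and the synaptonemal complex begins to zip them together while recombinases carry out strand exchange, and in pachytene cells synapsis is complete and crossovers mature. In juvenile mice the first germ cells to enter this programme advance nearly in step, so the most advanced cell type in the testis depends on age, while spermatogonia and the Sertoli cells that nurse the germ cells are present at each age.

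From 10 to 12 dpp, transcripts of many but not all genes of the synaptonemal complex, of meiotic strand exchange and of germ cell proteins used later in spermatogenesis rose, and those of Islr2, Epha2, Amh and Rpl23a, among others, fell. Of the 20368 genes, 4362 (21.4%) passed the threshold of 0.05 on the limma adjusted p-value, with 2450 genes (12%) higher and 1912 (9.39%) lower at 12 dpp. At the same limit on the unadjusted p there were 6573. The median log2 fold change of all genes was 0.01, on TPM values whose sum is fixed in each mouse, so a general shift in RNA could not be seen. Fold changes here are differences of mean log2(TPM + 1), a scale that understates the change of genes with low TPM. The genes that rose had a median of 0.49 and those that fell a median of -0.41. A log2 fold change of at least 1 was reached by 325 of the genes that rose and by 134 of those that fell, and one of at least 2 by 42 and 4 genes. The values of the 10 mice did not overlap between the ages for 1729 (70.6%) of the genes that rose and 1283 (67.1%) of those that fell, against 3596 (17.7%) of all genes tested. Since these are bulk samples, fewer cells of a type and less RNA per cell cannot be told apart from the RNA in any of these changes. The paper also scored the germ cells of each mouse by substage under the microscope, and those cell counts were not used here. With median-of-ratios scaling there were 2226 higher and 2350 lower genes, and with quantile normalization 2137 and 1963.

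**Figure D1:**
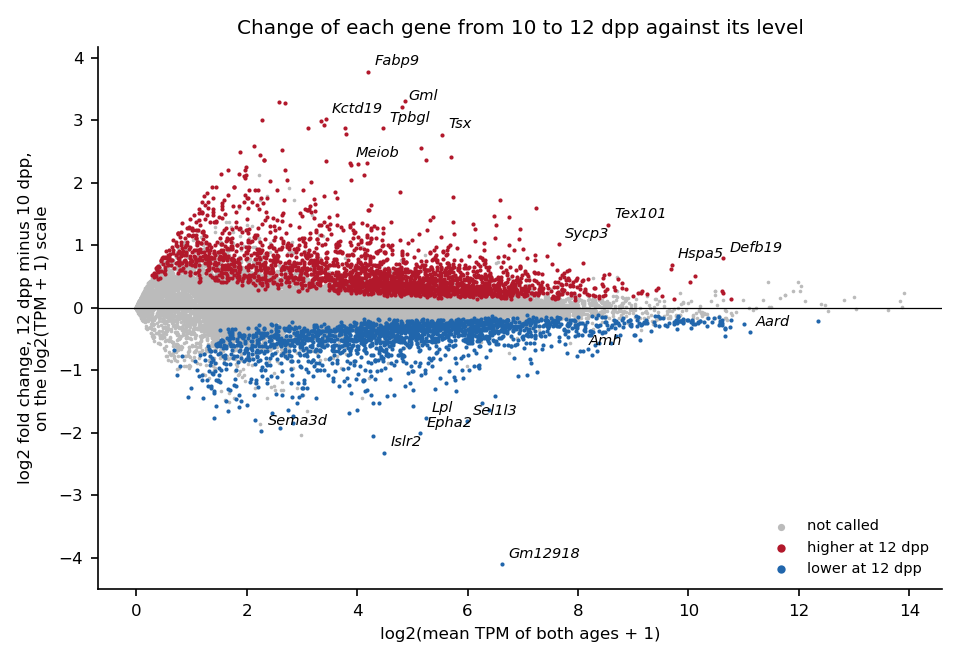
Each point is 1 of the 20368 genes tested, with log2 of its mean TPM over both ages plus 1 on the horizontal axis and its log2 fold change from 10 to 12 dpp on the vertical axis; red points are the 2450 genes higher and blue points the 1912 genes lower at 12 dpp. More rises than falls are large, with 42 genes against 4 beyond a log2 fold change of 2 in size, and the lowest point, Gm12918, is a pseudogene with erratic values among the mice.

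In the plot of change against level, the large rises lie among genes of low and middle TPM. The number of genes with at least 3 TPM in a mouse went from 14842 ± 162 (SD, n = 5; range 14585 to 15026) to 14994 ± 304 (SD, n = 5; range 14589 to 15284). The ranges overlapped, and the difference of 151.8 genes did not pass a two-sided exact permutation test (p = 0.333, n = 5 per age). It was 253.0 without mouse 1 of 12 dpp, 79.2 without mouse 3 of 12 dpp and 87.6 without mouse 5 of 10 dpp, and it turned to -344.8 when any TPM above 0 was counted (exact permutation p = 0.5, n = 5 per age).

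Markers of leptotene and zygotene spermatocytes were already present at 10 dpp and were higher at 12 dpp. The summed TPM of the 8 markers was 332, 394, 388, 354 and 380 in the mice of 10 dpp and 649, 752, 870, 664 and 632 in those of 12 dpp. Every mouse of 12 dpp lay above every mouse of 10 dpp, and mouse 3 of 12 dpp was the highest. Of these markers 7 (87.5%) rose, against 12% of all genes, with a median log2 fold change of 0.91 for the list. Syce1, a central element protein of the synaptonemal complex, did not pass the test. None of the 8 separates zygotene from leptotene cells, so the RNA does not by itself show the arrival of zygotene cells, and the interval is called by its ages below. Pachytene markers rose as well. Their summed TPM was 36.8, 44.5, 43.1, 43.9 and 44.9 at 10 dpp and 118, 152, 192, 96 and 114 at 12 dpp, most of it from Hspa2. In that list Hspa2, Ldhc and Piwil1 rose, while Pgk2, Ccna1 and Hist1h1t, which mark later pachytene cells, had means under 1 TPM at both ages. Hist1h1t, the gene of the testis linker histone H1T, was absent at 10 dpp. Its mean 2 days later was 0.502 ± 0.463 TPM (SD, n = 5). This gene stayed below the level for testing, 3 TPM, in all 28 juvenile mice, the oldest included. The paper found late pachytene cells with H1T protein to be abundant by the oldest juvenile ages. The low Hist1h1t level therefore cannot show whether such cells were lacking at 12 dpp. All 6 spermatid markers had means under 1 TPM at both ages, and none of the 6 spermatogonial markers passed the test.

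Among the genes of the proteins used to stage these cells, Sycp3 and H2afx rose and Stra8 did not. Sycp3 (ENSMUSG00000020059, chr10:88459569-88473236 on GRCm38, GENCODE M21), an axis protein of the synaptonemal complex, had 119, 134, 136, 128 and 136 TPM at 10 dpp and 249, 286, 325, 250 and 229 TPM at 12 dpp. The ages did not overlap, and the mice of 10 dpp were closely alike. The log2 fold change was 1.02 (SE 0.111, limma adjusted p = 1.56e-07). Sycp3 overlaps Chpt1 on the opposite strand, and since strandedness of the libraries is not given in the sources used here, values of overlapping genes are uncertain. H2afx (chr9:44334694-44336077), the histone variant phosphorylated around DNA breaks, had 52.1, 60.7, 57.2, 65.9 and 67.4 TPM at 10 dpp and 89.3, 87.7, 88.8, 79.4 and 83.2 TPM at 12 dpp, again without overlap (log2 fold change 0.50, SE 0.0906, limma adjusted p = 2.17e-04). Stra8 (chr6:34920163-34939344), induced by retinoic acid at the entry into meiosis, had 151, 190, 176, 174 and 177 TPM at 10 dpp and 154, 158, 179, 165 and 166 TPM at 12 dpp. These ranges overlapped almost completely, and the log2 fold change of -0.07 (SE 0.102) did not pass the test (limma adjusted p = 0.678).

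Of 15 tested genes of the chromosome axis and synaptonemal complex, 12 (80%) rose and none fell, against 12% and 9.39% of all genes. Their median log2 fold change was 0.61 against 0.01 for all genes, and their summed TPM went from 802 ± 47.9 to 1295 ± 158 (SD, n = 5). Sycp1, whose protein forms the transverse filaments that join paired axes, had 69.3, 72.5, 79.8, 77.6 and 81.6 TPM at 10 dpp and 120, 146, 164, 119 and 119 TPM at 12 dpp, a log2 fold change of 0.80 (SE 0.127, limma adjusted p = 4.20e-05). Hormad1, which marks axes not yet synapsed, had 39, 52.9, 58.2, 48.8 and 55.9 TPM at 10 dpp and 120, 145, 161, 110 and 111 TPM at 12 dpp, a log2 fold change of 1.32 (SE 0.154, limma adjusted p = 4.65e-07). In both genes the ages were apart and mouse 3 of 12 dpp was highest. Sycp2 rose by a log2 fold change of 1.18 and the central element gene Syce3 by 1.01. Meikin, which acts at the kinetochores of the first meiotic division, rose from 0.268 ± 0.315 to only 2.2 ± 0.852 TPM (SD, n = 5). Syce1 had means of 46.4 ± 7.3 and 57.3 ± 8.84 TPM, and the meiotic cohesin subunit Stag3 had 114 ± 6.11 and 134 ± 20.3 TPM (SD, n = 5). Neither passed the test (limma adjusted p = 0.237 and 0.164).

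Of 11 genes of meiotic double-strand break formation, 5 (45.5%) rose and 1 (9.09%) fell, against 12% and 9.39% of all genes, with a median log2 fold change of 0.29. With median-of-ratios scaling or quantile normalization 4 rose, and Ccdc36 lost its call (limma adjusted p = 0.0675 and 0.0549). Zcwpw1 lost its call without mouse 3 of 12 dpp (limma adjusted p = 0.0798). The gene that fell, Ewsr1, lost its call without mouse 1 or 2 of 10 dpp, at 432 and 421 TPM, or mouse 2 of 12 dpp, at 294 TPM (limma adjusted p = 0.0597, 0.0518 and 0.057). Spo11 (chr2:172977700-172993576), the gene of the nuclease that makes the breaks, had 4.02, 5.4, 3.92, 4.22 and 2.71 TPM at 10 dpp and 11, 12.7, 15.2, 12 and 11.8 TPM at 12 dpp. The lowest mouse of 12 dpp was well above the highest of 10 dpp (log2 fold change 1.44, SE 0.152, limma adjusted p = 1.10e-07). Gm960, the gene of the SPO11 partner TOPOVIBL, rose by 0.72 (SE 0.126, limma adjusted p = 1.20e-04). Prdm9, whose protein places the breaks, rose by 0.57 (SE 0.143, limma adjusted p = 0.00483) with overlapping ages, and its call was lost when mice 1 to 3 of each age were used alone (limma adjusted p = 0.12).

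Of 18 strand exchange genes, 11 (61.1%) rose and none fell, against 12% and 9.39% of all genes, with a median log2 fold change of 0.41. Meiob (chr17:24804289-24839788), a single-strand DNA binding protein of meiotic recombination, had 4.06, 3.72, 4.79, 3.95 and 2.94 TPM at 10 dpp and 22.8, 21.6, 27, 21.5 and 23.7 TPM at 12 dpp. The mice were close together at either age, and the log2 fold change, the largest of the list, was 2.32 (SE 0.133, limma adjusted p = 2.53e-12). Rad51ap2 had 3.27 ± 0.402 and 13.3 ± 1.81 TPM (SD, n = 5), a log2 fold change of 1.74. Dmc1, the meiotic recombinase, had 33.2, 38.1, 36.9, 31.8 and 34.8 TPM at 10 dpp and 50, 53.2, 62.2, 56.7 and 53.2 TPM at 12 dpp, without overlap (log2 fold change 0.64, SE 0.116, limma adjusted p = 1.95e-04).

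**Figure D2:**
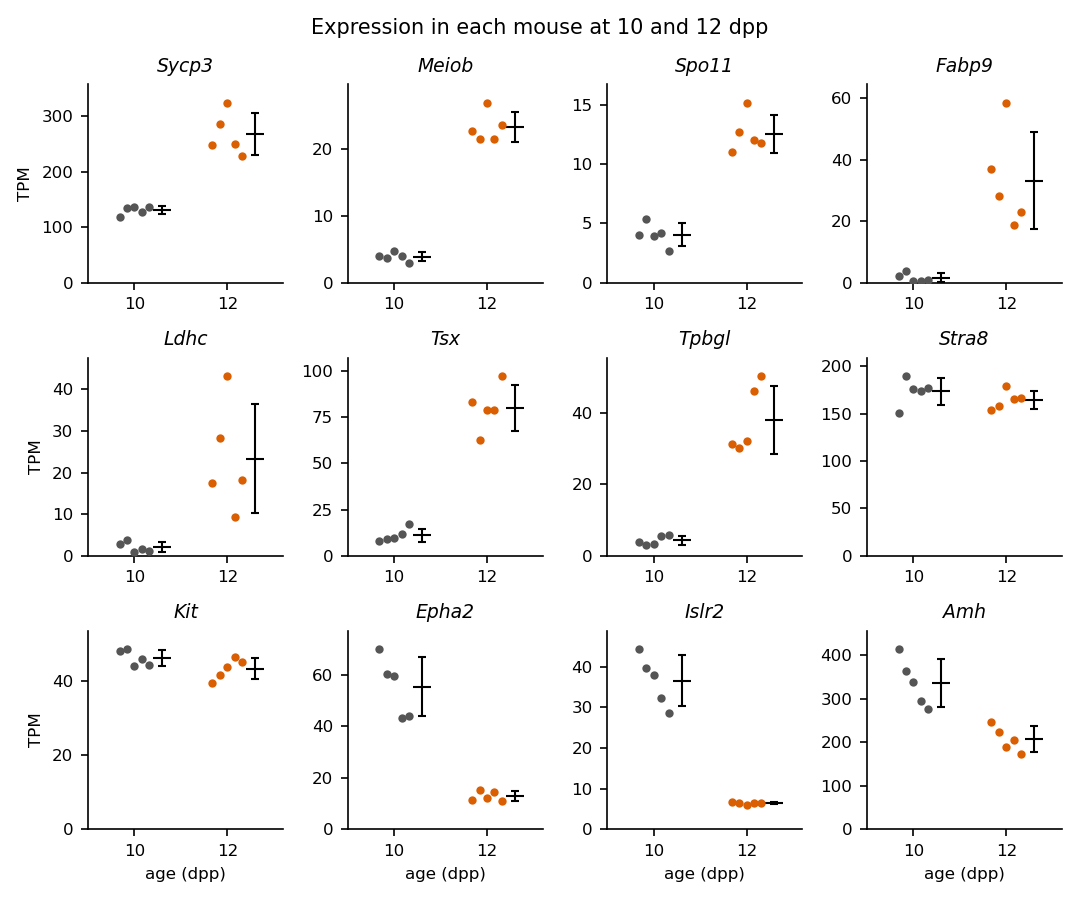
Each dot is the TPM of a gene in 1 mouse of 10 dpp (grey) or 12 dpp (orange), and the bars beside them are the mean and SD of the 5 mice. The ages are apart for Sycp3, Meiob, Spo11, Fabp9, Ldhc, Tsx, Tpbgl, Epha2, Islr2 and Amh and overlap for Stra8 and Kit.

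Of 15 genes of crossover formation, 7 (46.7%) rose and none fell, against 12% and 9.39% of all genes, with a median log2 fold change of 0.40. The largest rise was that of 1700102P08Rik, the gene of SPO16, which had 2.52, 2.13, 2.08, 2.41 and 2.46 TPM at 10 dpp and 24.1, 27.7, 35.7, 9.49 and 20.8 TPM at 12 dpp. Its mice were nearly equal at 10 dpp and widely spread at 12 dpp, where mouse 4 was lowest (log2 fold change 2.78, SE 0.227, limma adjusted p = 1.46e-09). The gene overlaps Ccdc36 on the opposite strand, so its values are uncertain. Cntd1, needed for late crossover steps, rose by 1.64, Msh4, of the MutS complex that holds recombination intermediates, by 1.46, and the helicase gene Hfm1 from 11.9 ± 1.09 to 30.4 ± 5.08 TPM (SD, n = 5), or by 1.27 (SE 0.134, limma adjusted p = 1.03e-07). Of 11 genes that tie telomeres to the nuclear envelope, 6 (54.5%) rose and 1 (9.09%) fell. The gene that fell, the lamin gene Lmnb1, lost its call without mouse 1 of 10 dpp, at 99.1 TPM (limma adjusted p = 0.0598). Ccdc155, the gene of the KASH5 protein that links telomeres to the dynein motor, rose by 1.21 (SE 0.139, limma adjusted p = 3.87e-07). Sun2, an inner nuclear membrane protein, rose by 0.49 and Terb1 by 0.78.

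Of 25 genes of germ granules and of piRNAs, the small RNAs that silence transposons in the germ line, 11 (44%) rose and none fell, where 12% of all genes rose. Piwil1 had 2.01, 3.02, 3.07, 2.12 and 1.77 TPM at 10 dpp and 9.73, 13.1, 19.8, 7.91 and 9.22 TPM at 12 dpp. The ages were apart and mouse 3 of 12 dpp again was highest (log2 fold change 1.88, SE 0.213, limma adjusted p = 2.94e-07). Mov10l1, the helicase that feeds piRNA precursors into processing, rose by 0.66 and Tdrd5 by 0.66. Mael, with means of 146 ± 8.23 and 173 ± 17.7 TPM (SD, n = 5), did not pass the test (limma adjusted p = 0.226). Of 24 transcription regulators known from pachytene cells, 8 (33.3%) rose and 1 (4.17%) fell. Sox30 rose by 1.40, Rfx2 by 1.25 and the bromodomain gene Brdt by 1.09. Mybl1, the gene of the A-MYB factor of the pachytene programme, had 14.8, 12.9, 10.7, 11.5 and 11.5 TPM at 10 dpp and 13.9, 18.6, 24.3, 22.1 and 21.6 TPM at 12 dpp. It rose by 0.65 (SE 0.122, limma adjusted p = 2.67e-04), although mouse 1 of 12 dpp lay within the range of 10 dpp. The Y-linked Zfy2 had 1.14 ± 0.155 and 3.44 ± 0.576 TPM (SD, n = 5), a log2 fold change of 1.05. Of 24 genes of sex chromosome silencing and DNA damage signalling, 5 (20.8%) rose and none fell, against 12% and 9.39% of all genes. Among them was the kinase gene Atr with a log2 fold change of 0.63. With median-of-ratios scaling 4 rose, and Rad9b lost its call (limma adjusted p = 0.0501). With mice 1 to 3 only, Mdc1 and Rad1 lost theirs (limma adjusted p = 0.053 and 0.0917).

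Of 19 tested genes whose products serve late spermatocytes and spermatids, 10 (52.6%) rose and none fell, against 12% and 9.39% of all genes. Their summed TPM went from 153 ± 9.28 at 10 dpp to 351 ± 80.1 at 12 dpp (SD, n = 5). Hspa2 (chr12:76404176-76406938), a chaperone of spermatocytes, had 31.6, 37.4, 38.6, 38.9 and 41.6 TPM at 10 dpp and 89.1, 110, 126, 77.3 and 85.8 TPM at 12 dpp (log2 fold change 1.34, SE 0.153, limma adjusted p = 3.66e-07). Ldhc (chr7:46861203-46878142), the lactate dehydrogenase of germ cells, had 2.86, 3.78, 1.01, 1.76 and 1.16 TPM at 10 dpp and 17.5, 28.4, 43.3, 9.27 and 18.3 TPM at 12 dpp. Both genes were apart between the ages, and in both mouse 3 was highest and mouse 4 lowest at 12 dpp. For Ldhc the log2 fold change was 2.88 (SE 0.34, limma adjusted p = 5.80e-07). Its somatic counterpart Ldha had 126 ± 2.47 and 118 ± 8.8 TPM (SD, n = 5) and did not pass the test (limma adjusted p = 0.737). The autosomal Pdha2 rose by 1.33, while the X-linked Pdha1, which codes for the same enzyme subunit in other cells, had 32 ± 3.75 and 34.1 ± 3.35 TPM (SD, n = 5) and did not pass the test (limma adjusted p = 0.644). Adam2, a sperm surface protein, went from 0.06 ± 0.0894 to 3.76 ± 1.2 TPM (SD, n = 5). Ybx2, which stores mRNA in germ cells, rose by 1.78, and the chaperone gene Clgn by 1.56.

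The same 2 mice stood at the ends in other rising genes. Fabp9 (ENSMUSG00000027528, chr3:10193621-10197283), a fatty acid binding protein of the testis, had 2.22, 3.74, 0.46, 0.47 and 0.97 TPM at 10 dpp and 37.1, 28.1, 58.6, 18.8 and 22.9 TPM at 12 dpp. Mouse 3 was the highest and mouse 4 the lowest at 12 dpp, and no mouse of 10 dpp came near either. The log2 fold change of 3.78 (SE 0.337, limma adjusted p = 6.09e-09) was the largest rise of all genes on the log2(TPM + 1) scale, a rank that depends on the pseudocount, since with 0.1 in place of 1 other genes, NONMMUG045860 first among those named, rose more. Mroh4 (chr15:74606029-74636353) had 0, 0.49, 0, 0.23 and 0 TPM at 10 dpp and 10.8, 9.01, 20.7, 6.3 and 7.41 TPM at 12 dpp, a log2 fold change of 3.28 (SE 0.265, limma adjusted p = 1.22e-09). Kctd19, a meiotic chromatin factor, rose by 3.02 (SE 0.226, limma adjusted p = 2.99e-10) and Gml by 3.22 (SE 0.226, limma adjusted p = 9.35e-11). Zmynd10 (chr9:107547298-107551319), known for the assembly of dynein arms of cilia, had 0, 0.29, 0, 0.15 and 0.6 TPM at 10 dpp and 6.12, 6.88, 11.1, 2.9 and 5.99 TPM at 12 dpp, a log2 fold change of 2.59 (SE 0.265, limma adjusted p = 6.29e-08). Mouse 3 and mouse 4 again marked the ends in Mroh4 and Zmynd10. Fabp9 overlaps Gm37389 on the same strand, Kctd19 overlaps Plekhg4 and Zmynd10 overlaps Gm34106, both on the opposite strand.

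A second kind of rise was that of genes with another order of the mice and lower levels in adult spermatocytes than at 12 dpp. Tsx (ENSMUSG00000031329, chrX:103414467-103424580), a testis-specific X-linked gene, had 8.1, 9.1, 9.83, 11.6 and 17.2 TPM at 10 dpp and 83.4, 62.5, 79, 78.8 and 97.5 TPM at 12 dpp, a log2 fold change of 2.77 (SE 0.171, limma adjusted p = 1.30e-11). Tpbgl (chr7:99624082-99627103), a leucine-rich repeat membrane protein, had 3.99, 3.04, 3.21, 5.54 and 5.82 TPM at 10 dpp and 31.4, 30.1, 32.1, 46.1 and 50.4 TPM at 12 dpp, a log2 fold change of 2.88 (SE 0.16, limma adjusted p = 1.73e-12). In both genes mouse 5 was highest at each age, and the ages did not overlap. Car7, a carbonic anhydrase, had 0.6, 1.35, 0.33, 2.57 and 1.97 TPM at 10 dpp and 19.6, 14.5, 13.7, 13.7 and 23.1 TPM at 12 dpp, a log2 fold change of 2.99 (SE 0.214, limma adjusted p = 1.29e-10). Hsd3b6, a steroid enzyme of Leydig cells, had 0.2, 0.99, 0.32, 1.85 and 3.61 TPM at 10 dpp and 11.5, 10.6, 10.3, 13.3 and 42.7 TPM at 12 dpp, a log2 fold change of 2.92 (SE 0.394, limma adjusted p = 4.44e-06). In Hsd3b6 mouse 5 of 12 dpp stood far above the others, and reads of this gene and its paralog Hsd3b1 may be shared. Tsx overlaps Gm26992 on the same strand and Tpbgl overlaps Gm10605 on the opposite strand.

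Adult levels come from a table that was normalized separately, so they are set beside the juvenile levels without a test. Fabp9 went on from 33.1 ± 15.8 TPM at 12 dpp to 1140 ± 352 at 18 dpp (SD, n = 5) and 3237 ± 74.1 in adult spermatocytes (SD, n = 4), and Ldhc from 23.4 ± 13.1 to 2396 ± 759 and 6852 ± 140 TPM. Tsx had 80.2 ± 12.5 TPM at 12 dpp, 142 ± 34.4 at 18 dpp (SD, n = 5) and 18.7 ± 1.92 in adult spermatocytes (SD, n = 4), and Tpbgl had 38 ± 9.47, 42.4 ± 8.36 and 3.69 ± 0.846 TPM. Thus what rose between 10 and 12 dpp was in part abundant and in part scarce in adult cells. Of the 2450 genes that rose, 1073 (43.8%) had a higher mean in adult spermatocytes than at 12 dpp, 1206 (49.2%) had a lower mean there than at 10 dpp, and 310 (12.7%) were under 1 TPM there. Of the 1912 genes that fell, 208 (10.9%) were above their 12 dpp mean in adult spermatocytes, 1783 (93.3%) were below their 10 dpp mean and 612 (32%) were under 1 TPM. For all 20366 tested genes with an adult value, these shares were 34.2%, 64.7% and 26%.

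**Figure D3:**
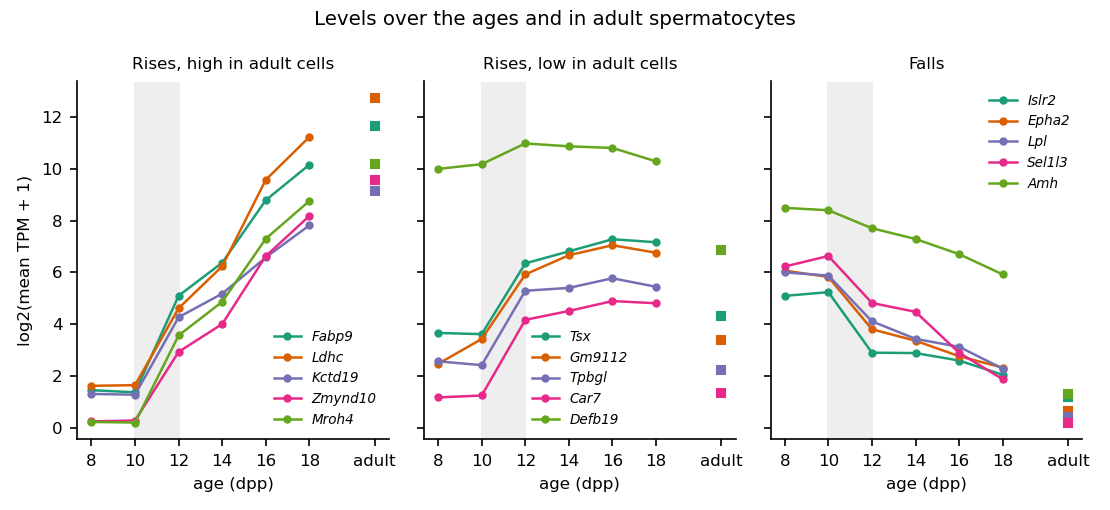
Lines join log2 of the mean TPM plus 1 at 8 dpp (n = 3) and at 10 to 18 dpp (n = 5 each), squares give the adult spermatocytes (n = 4, from a table normalized separately), and the grey band is the interval from 10 to 12 dpp. Fabp9, Ldhc, Kctd19, Zmynd10 and Mroh4 climb on to the adult cells, Tsx, Gm9112, Tpbgl, Car7 and Defb19 change less after 12 dpp and are lower in adult cells, and Islr2, Epha2, Lpl, Sel1l3 and Amh fall further, to between 0.135 and 1.43 TPM in adult cells.

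The plot of levels over the ages shows these courses. A switch from under 1 TPM in every mouse of 10 dpp to at least 3 TPM in every mouse of 12 dpp was seen in 10 genes, and the converse in 0 genes. The 10 were Mroh4, Glipr1l2, Ptchd3, Prph2, 1700019A02Rik and the NONCODE genes NONMMUG011010, NONMMUG017845, NONMMUG035989, NONMMUG040410 and NONMMUG045860. Prph2, a disc protein of photoreceptors, had 0.66, 0.66, 0.92, 0.94 and 0.78 TPM at 10 dpp and 4.46, 3.88, 4.48, 4.54 and 3.53 TPM at 12 dpp, with 1.1 ± 0.212 TPM in adult spermatocytes (SD, n = 4). Its values were tight at both ages (log2 fold change 1.53, SE 0.145, limma adjusted p = 1.74e-08).

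Some abundant genes rose by large amounts of TPM. Defb19 (chr2:152576086-152580312), a beta-defensin, had 1069, 1043, 1063, 1267 and 1345 TPM at 10 dpp and 1978, 1822, 1802, 2093 and 2380 TPM at 12 dpp, and its rise in TPM was the largest of all genes called (log2 fold change 0.80, SE 0.104, limma adjusted p = 2.73e-06). Hspa5 and Calr, chaperones of the endoplasmic reticulum, rose from 633 ± 20.9 to 1025 ± 47.3 TPM and from 651 ± 45.6 to 998 ± 60.4 TPM (SD, n = 5). Tex101, a surface glycoprotein of germ cells, had 181, 247, 214, 192 and 219 TPM at 10 dpp and 551, 528, 625, 483 and 472 TPM at 12 dpp (log2 fold change 1.33, SE 0.123, limma adjusted p = 1.02e-08). All mice of 12 dpp were above those of 10 dpp in these genes. Tmsb4x, an actin-binding protein gene on the X chromosome, rose from 918 ± 111 to 1307 ± 90.6 TPM (SD, n = 5).

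Promoters of 4 of the genes with large changes are shown so that the letters beside their start sites can be read, Ldhc and Zmynd10 for the rises that go on to the adult, Tsx for those that do not and Epha2 for the falls. The sequences are from RefSeq on GRCm38.p6, from 250 bases before to 50 after a start site, on the strand of the gene, and capitals mark the letters of the motif CCAAT, of the MYB motif TAACGG, of the RFX motif GTTGCCA, of the ETS motif GGAAGT and of the CRE motif TGACGTCA, on either strand. The windows are chr7:46861013-46861312 for Ldhc, chr9:107547054-107547353 for Zmynd10, chrX:103414217-103414516 for Tsx and chr4:141300971-141301270 for Epha2, all on the plus strand.
Ldhc: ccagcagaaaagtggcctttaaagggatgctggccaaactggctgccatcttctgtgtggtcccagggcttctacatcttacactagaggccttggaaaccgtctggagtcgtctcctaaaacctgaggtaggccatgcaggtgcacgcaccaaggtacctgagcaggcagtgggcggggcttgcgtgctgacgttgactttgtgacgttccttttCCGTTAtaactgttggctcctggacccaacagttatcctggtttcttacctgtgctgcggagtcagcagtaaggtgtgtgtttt
Zmynd10: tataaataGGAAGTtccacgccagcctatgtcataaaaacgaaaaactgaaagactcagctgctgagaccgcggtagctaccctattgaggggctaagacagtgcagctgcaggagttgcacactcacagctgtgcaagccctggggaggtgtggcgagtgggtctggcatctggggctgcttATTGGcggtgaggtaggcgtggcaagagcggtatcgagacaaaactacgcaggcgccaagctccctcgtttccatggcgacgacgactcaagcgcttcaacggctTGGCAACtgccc
Tsx: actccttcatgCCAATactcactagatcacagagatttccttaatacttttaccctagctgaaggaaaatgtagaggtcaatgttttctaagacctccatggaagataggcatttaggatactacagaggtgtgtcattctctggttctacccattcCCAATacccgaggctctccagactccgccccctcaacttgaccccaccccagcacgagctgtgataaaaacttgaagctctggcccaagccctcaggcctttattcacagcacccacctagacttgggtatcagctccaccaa
Epha2: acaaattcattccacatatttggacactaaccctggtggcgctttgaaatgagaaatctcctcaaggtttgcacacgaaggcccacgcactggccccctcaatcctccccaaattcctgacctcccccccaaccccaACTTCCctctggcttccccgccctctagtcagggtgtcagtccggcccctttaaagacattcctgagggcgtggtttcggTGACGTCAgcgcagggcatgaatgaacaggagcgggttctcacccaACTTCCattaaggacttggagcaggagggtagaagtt
The Ldhc window shown holds the MYB letters once, while a further Ldhc window, chr7:46861237-46861536, holds the ETS letters and no MYB letters, the window of Zmynd10 the ETS, CCAAT and RFX letters, that of Tsx the CCAAT letters at 2 places and that of Epha2 the ETS letters at 2 places and the CRE letters. Windows were found for 11128 of 15025 Ensembl genes, 14179 in all, some genes having several. The MYB letters were in 5.74% of the 2159 windows of genes that rose, in 3.22% of the 1554 windows of genes that fell and in 3.91% of all windows, and the RFX letters in 5.09%, 2.83% and 4.18%. In the 238 windows of genes that rose by a log2 fold change of at least 1, these shares were 9.24% and 7.56%, and those of the other motifs were 28.6% (ETS), 37.8% (CCAAT), 2.94% (CRE), 25.6% (E2F) and 3.78% (NRF1). The ETS letters were in 28.5%, 20.3% and 26.9% of the windows that rose, that fell and of all, CCAAT in 39.9%, 35.4% and 37.9%, and the CRE letters in 3.57%, 2.51% and 2.9%. The E2F motif TCCCGC was in 31%, 39.4% and 34%, and the NRF1 motif GCATGCGC in 5.42%, 4.05% and 5.06%. These are counts of letters with no test, and a match is not a binding site.

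Among the genes that fell most were some with little RNA in adult spermatocytes. Islr2 (ENSMUSG00000051243, chr9:58196297-58204319), an immunoglobulin and leucine-rich repeat protein, had 44.4, 39.7, 38, 32.2 and 28.5 TPM at 10 dpp and 6.67, 6.52, 5.97, 6.55 and 6.46 TPM at 12 dpp. The mice of 12 dpp were nearly equal, and all lay far below the lowest of 10 dpp (log2 fold change -2.32, SE 0.172, limma adjusted p = 2.33e-10). Epha2 (chr4:141301240-141329384), an ephrin receptor, had 70.2, 60.3, 59.5, 43.4 and 44.1 TPM at 10 dpp and 11.5, 15.4, 12.1, 14.5 and 11.1 TPM at 12 dpp (log2 fold change -2.01, SE 0.193, limma adjusted p = 2.15e-08). Sel1l3 had 115, 98.8, 108, 84.4 and 83.9 TPM at 10 dpp and 28.2, 32.8, 25.5, 26 and 23.2 TPM at 12 dpp (log2 fold change -1.81, SE 0.158, limma adjusted p = 4.40e-09). Lpl, the lipoprotein lipase, had 65.7, 61, 61.2, 52.4 and 47.9 TPM at 10 dpp and 18.1, 18.6, 14.8, 14.9 and 14.6 TPM at 12 dpp (log2 fold change -1.77, SE 0.145, limma adjusted p = 1.58e-09). In Islr2, Epha2, Sel1l3 and Lpl the mice 4 and 5 were the lowest at 10 dpp, though still above all of 12 dpp. Adult spermatocytes had 1.28 ± 0.108 TPM of Islr2, 0.575 ± 0.248 of Epha2, 0.135 ± 0.0526 of Sel1l3 and 0.328 ± 0.112 of Lpl (SD, n = 4). Islr2 overlaps Islr on the same strand, so their values may be shared in part.

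Other large falls were those of Lpcat2 (-2.05), the guidance factor gene Sema3d (-1.98), Nnmt (-1.92), Chmp4c (-1.79), Mapk4 (-1.74) and Farp1 (-1.69), given as log2 fold changes, all without overlap between the ages. Of the 134 genes lower by a log2 fold change of at least 1, 103 (76.9%) were under 1 TPM in adult spermatocytes, against 69 (21.2%) of the 325 that rose as much. The pseudogene Gm12918 (chr4:10848420-10849055), singled out after its values were seen, had 150, 74.3, 198, 145 and 87.5 TPM at 10 dpp and 237, 0, 0, 0 and 79.6 TPM at 12 dpp. Its log2 fold change of -4.11 (SE 1.49, limma adjusted p = 0.049) was the lowest of all called genes, but it was listed at 0 in mice 2, 3 and 4 of 12 dpp and mouse 1 of 12 dpp was the highest of all 10. The call was lost without any 1 of the mice 1 to 5 of 10 dpp (limma adjusted p = 0.0873, 0.0641, 0.0949, 0.0809 and 0.0631) and without mouse 2, 3 or 4 of 12 dpp (limma adjusted p = 0.134, 0.135 and 0.135). It was lost too with median-of-ratios scaling (limma adjusted p = 0.0505), quantile normalization (0.051) and constant prior variance (0.0625). The same held for a fit of both ages alone (0.101), mice 1 to 3 only (0.121) and transcript sums with no filter (0.146).

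Of 22 genes of undifferentiated spermatogonia 1 (4.55%) rose and 1 (4.55%) fell. Of 19 genes of differentiating spermatogonia 2 (10.5%) rose and 3 (15.8%) fell. Of all genes 12% rose and 9.39% fell. With median-of-ratios scaling 3 of the 22 and 4 of the 19 fell. The summed TPM of the undifferentiated list was 733, 703, 700, 692 and 695 at 10 dpp and 595, 661, 621, 671 and 650 at 12 dpp, lower in every mouse of 12 dpp. The most abundant member of that list was the integrin gene Itgb1, which did not pass the test. The 6 spermatogonial markers summed to 646 ± 41.2 and 660 ± 32.9 TPM (SD, n = 5). The sum of the differentiating list was 1530 ± 76.9 and 1577 ± 46.2 TPM (SD, n = 5). Kit, the receptor of differentiating spermatogonia, had 48.2, 48.8, 44.2, 46.1 and 44.5 TPM at 10 dpp and 39.6, 41.8, 43.8, 46.7 and 45.3 TPM at 12 dpp. Zbtb16, needed for the maintenance of spermatogonial stem cells, had 20.6, 20.8, 18.7, 21.6 and 19.2 TPM at 10 dpp and 18.6, 20.8, 18.3, 19.6 and 21.1 TPM at 12 dpp. The ages overlapped in both genes, and neither passed the test (limma adjusted p = 0.497 and 0.813). Ccnd2, the cyclin of differentiating spermatogonia, had 109, 94.6, 105, 88.3 and 81.8 TPM at 10 dpp and 45.8, 56.4, 49.6, 49.5 and 50 TPM at 12 dpp, without overlap (log2 fold change -0.91, SE 0.0973, limma adjusted p = 1.17e-07). Id4, an inhibitor of transcription factors known from stem cells, rose from 8.86 ± 0.733 to 18.9 ± 2.46 TPM (SD, n = 5), and was at 61.8 ± 3.42 TPM in adult spermatocytes (SD, n = 4). The integrin gene Itga6 fell (log2 fold change -0.49, SE 0.102, limma adjusted p = 8.44e-04). Of 26 genes of meiotic entry and retinoic acid signalling 7 (26.9%) rose and 5 (19.2%) fell. Among the falls, Sohlh1 and Rdh10 lost their calls with a replicate block (limma adjusted p = 0.0622 and 0.0727). Rara lost its call without mouse 1 of 10 dpp (limma adjusted p = 0.0512). Cyp26a1, which degrades retinoic acid, rose by 1.04, Meioc, needed for the meiotic prophase programme, by 0.57 and Dazl, a germ cell RNA-binding protein, by 0.31, while Dmrt1, which holds back meiotic entry in spermatogonia, fell (log2 fold change -0.28, SE 0.0746, limma adjusted p = 0.00833).

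**Figure D4:**
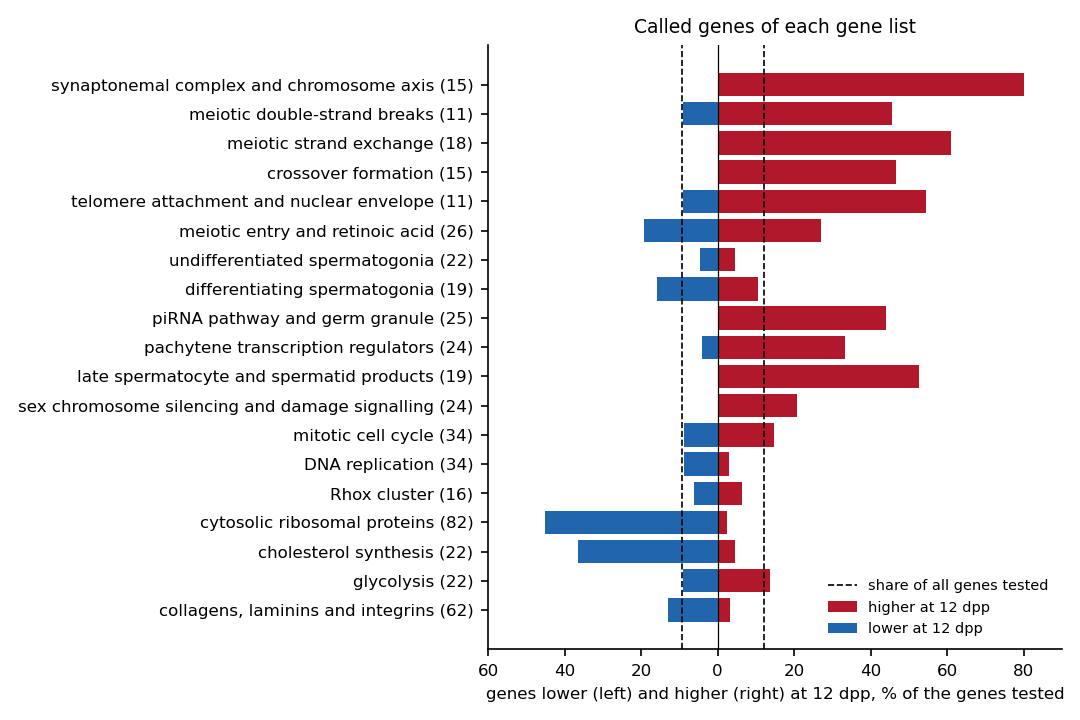
Bars give the share of the tested genes of each list that were lower (blue, left) and higher (red, right) at 12 dpp, with the number tested in parentheses, and dashed lines mark the shares of all genes, 9.39% and 12%. The axis and synaptonemal complex list reaches 80% higher, and the ribosomal protein list 45.1% lower, a count of 37 that became 48 with median-of-ratios scaling and 12 with quantile normalization.

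The plot of called genes per list sets these counts beside those for all genes. Of 34 genes of the mitotic cell cycle 5 (14.7%) rose and 3 (8.82%) fell, and with median-of-ratios scaling 6 fell and the median of the list turned from 0.01 to -0.01. Of 34 genes of DNA replication 1 (2.94%) rose and 3 (8.82%) fell, and with median-of-ratios scaling none rose. Within the mitotic list the mitotic cohesin gene Rad21 fell (log2 fold change -0.34, SE 0.0535, limma adjusted p = 4.17e-05), while Bub1, of the spindle checkpoint, rose by 0.57 and Ccnb3, a cyclin expressed in early meiotic prophase, by 0.90. Of 82 cytosolic ribosomal protein genes, 37 (45.1%) fell and 2 rose, with a median log2 fold change of -0.19, and 48 fell with median-of-ratios scaling but 12 with quantile normalization, where the median was -0.11. Their summed TPM was 70231, 77344, 74194, 75032 and 77804 at 10 dpp and 71773, 64878, 64079, 63187 and 66567 at 12 dpp. Mouse 1 of 10 dpp and mouse 1 of 12 dpp overlapped, and the other mice were apart by age. Rpl23a had 1607, 1862, 1854, 1846 and 1885 TPM at 10 dpp and 1522, 1434, 1370, 1421 and 1414 TPM at 12 dpp (log2 fold change -0.34, SE 0.0681, limma adjusted p = 6.48e-04). Ribosomal protein genes have many near-identical pseudogene copies, so their values are uncertain. The translation factor gene Eef1a1 had the largest fall in TPM, from 5546 ± 349 to 4803 ± 116 (SD, n = 5), and its call (limma adjusted p = 0.0048) was lost with quantile normalization (limma adjusted p = 0.125).

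Of 22 genes of cholesterol synthesis and its control, 8 fell and 1 rose, with a median log2 fold change of -0.26. Insig1, a sensor of sterols, had a log2 fold change of -0.56 and Cyp51 one of -0.48, while Ebp, an X-linked isomerase of the same pathway, rose by 0.66 (SE 0.101, limma adjusted p = 2.59e-05). Of 22 glycolysis genes 3 (13.6%) rose and 2 (9.09%) fell, close to the shares of all genes, 12% and 9.39%. Of 62 tested genes for collagens, laminins and integrins 8 (12.9%) fell, among them Col9a2 (-0.98), Itgb8 (-0.70) and Col11a1 (-0.67), and 2 (3.23%) rose, with Col28a1 at 1.05. The median of the list was -0.03, and 6 fell with quantile normalization.

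Of 652 X-linked genes tested, 87 (13.3%) rose and 61 (9.36%) fell, against 14.6% and 10.7% of 14210 autosomal genes. The largest X-linked rises were those of Tsx, Gm9112 (log2 fold change 2.55) and Gm648 (2.35). Gm9112 had 8.07, 8.14, 7.28, 6.18 and 18.9 TPM at 10 dpp and 76.7, 53.4, 50.7, 37.4 and 78.6 TPM at 12 dpp. As in Tsx, mouse 5 was highest at both ages. The largest falls were those of the pseudogene Mageb8-ps (log2 fold change -1.16), of Heph, a copper oxidase (-1.13), and of the pseudogene Gm14633 (-1.09), whose call was lost without mouse 3 or 5 of 10 dpp, at 7.03 and 7.56 TPM, or mouse 3 of 12 dpp, at 0 TPM (limma adjusted p = 0.0532, 0.0511 and 0.0898), the last of which also moved its log2 fold change to -0.66. In the Rhox cluster of X-linked homeobox genes, Rhox5 rose by 1.26 and Rhox8 had a log2 fold change of -0.57, and the other 14 of 16 did not pass the test. Copies within this cluster are alike, so these values are uncertain.

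Of the tested genes of the NONCODE catalogue of long noncoding RNAs, 274 (5.2%) rose and 314 (5.96%) fell, and of the 15025 Ensembl genes 14.4% and 10.6%. NONMMUG018358 had 1.81, 2.72, 3.73, 5 and 11.9 TPM at 10 dpp and 41, 55.9, 57.8, 46 and 55.6 TPM at 12 dpp, without overlap (log2 fold change 3.31, SE 0.297, limma adjusted p = 6.17e-09). NONMMUG045860 had 0, 0, 0, 0.57 and 0 TPM at 10 dpp and 7.92, 9.43, 9.1, 12.2 and 10.6 TPM at 12 dpp (log2 fold change 3.30, SE 0.512, limma adjusted p = 2.99e-05). The largest falls were those of NONMMUG032781 (log2 fold change -1.84) and NONMMUG040419 (-1.77). Some NONCODE genes repeat Ensembl genes, and 36 had the same TPM as an Ensembl gene in all 28 mice, of which 3 were called. Of 76 piRNA precursor genes, 11 (14.5%) rose and 2 (2.63%) fell, against 12% and 9.39% of all genes, so the share that rose was near that of all genes. The precursor pi-8-qC5-8200 had 0.06, 0.05, 0, 0.05 and 0 TPM at 10 dpp and 2.67, 2.44, 4.76, 1.4 and 2.85 TPM at 12 dpp, with 108 ± 7.86 TPM in adult spermatocytes (SD, n = 4). Here too mouse 3 was highest and mouse 4 lowest at 12 dpp (log2 fold change 1.83, SE 0.197, limma adjusted p = 1.32e-07).

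Genes of Sertoli cells were abundant in these germ cell samples and moved in both directions. All 10 Sertoli markers were expressed, with Clu the most abundant, and their summed TPM was 10944, 10495, 10400, 10410 and 10002 at 10 dpp and 10317, 10245, 9083, 9490 and 9505 at 12 dpp. The sums overlapped between the ages. Amh (chr10:80805243-80807648), the hormone of immature Sertoli cells, had 414, 363, 337, 294 and 276 TPM at 10 dpp and 247, 223, 189, 204 and 172 TPM at 12 dpp (log2 fold change -0.69, SE 0.137, limma adjusted p = 4.95e-04). The transcription factor gene Wt1 had 430, 404, 424, 340 and 324 TPM at 10 dpp and 233, 265, 256, 251 and 248 TPM at 12 dpp (log2 fold change -0.60, SE 0.0947, limma adjusted p = 3.33e-05). In both genes the ages were apart and mice 4 and 5 were lowest at 10 dpp, as in Epha2 and Islr2. Gata4 (log2 fold change -0.61) and Aard (-0.39) fell as well, Rhox5 rose, and the other 5 markers did not pass the test, among them Sox9 with 94.7 ± 7.23 and 86.5 ± 9.42 TPM and Cldn11 with 640 ± 20.9 and 706 ± 31.6 TPM (SD, n = 5). The part of Sertoli cell RNA in the falls of Islr2, Epha2, Sel1l3 and Lpl, and in the rises of Defb19, Tsx and Tpbgl, was not tested.

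Markers of other somatic cells had lower sums than the Sertoli markers at both ages. The 6 macrophage markers summed to 27.3, 27.9, 38.3, 31.1 and 40.6 TPM at 10 dpp and 88.2, 48.2, 61.6, 52.9 and 66.9 TPM at 12 dpp, without overlap and with Lyz2 the most abundant. Of these 5 (83.3%) rose, against 12% of all genes, led by C1qa from 5.37 ± 1.32 to 17.6 ± 7.18 TPM (SD, n = 5). With quantile normalization 3 rose. Cd68 and Csf1r lost their calls there and without several single mice, such as mouse 1 of 10 dpp (limma adjusted p = 0.0939 and 0.0927). The 7 Leydig cell markers summed to 168, 193, 274, 259 and 320 TPM at 10 dpp and 352, 255, 290, 331 and 505 TPM at 12 dpp, with Insl3 the most abundant, and mouse 5 was highest at both ages. Only Hsd3b6 and Hsd3b1 of these passed the test. Hsd3b1 had 31.9, 47.8, 47.1, 59.8 and 88.7 TPM at 10 dpp and 98.6, 63.7, 62.6, 122 and 92.9 TPM at 12 dpp, with overlap, and its call was lost with quantile normalization (limma adjusted p = 0.0551). It was lost too without mouse 1, 2 or 3 of 10 dpp (limma adjusted p = 0.149, 0.0796 and 0.0847) or mouse 1, 4 or 5 of 12 dpp (limma adjusted p = 0.0882, 0.122 and 0.0808). None of the 5 peritubular markers, led by Acta2, passed the test, with summed TPM of 843, 1170, 1035, 1152 and 1322 at 10 dpp and 1227, 1172, 1213, 1330 and 1667 at 12 dpp. The 5 endothelial markers summed to 75.6 ± 14.8 and 81.7 ± 13.4 TPM and the 5 red blood cell markers to 279 ± 123 and 270 ± 63.1 TPM (SD, n = 5), and none passed the test. The part of Leydig cells and macrophages in the genes that rose, such as Hsd3b6, was not tested.

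**Figure D5:**
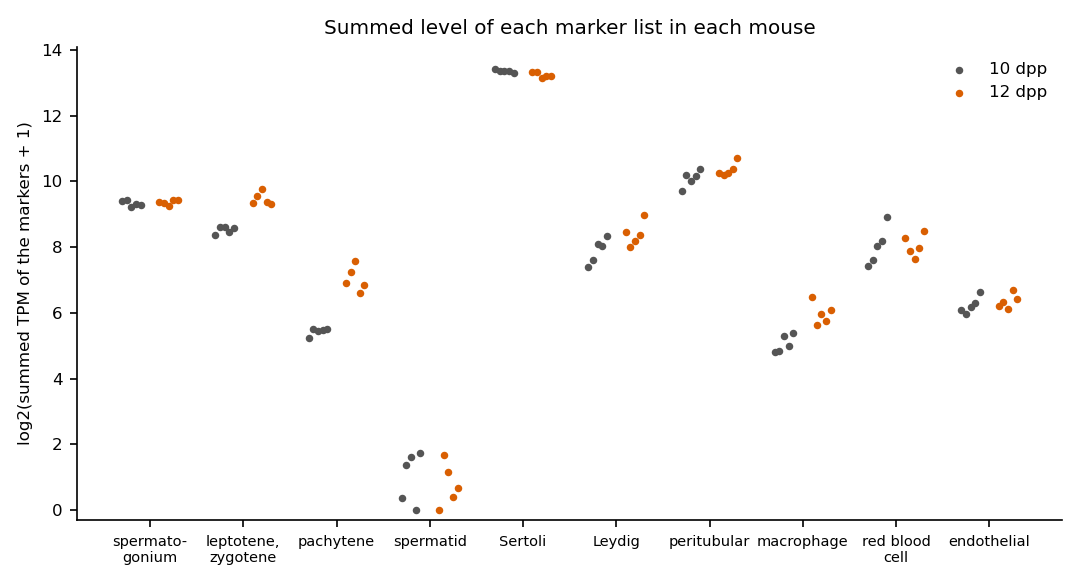
Each dot is log2 of the summed TPM of a marker list plus 1 in 1 mouse of 10 dpp (grey) or 12 dpp (orange), for 10 lists of cell type markers. The leptotene and zygotene, pachytene and macrophage sums are apart between the ages, the spermatid markers are near 0 and the Sertoli sums, 10450 ± 336 and 9728 ± 533 TPM (SD, n = 5), overlap and come in large part from Clu, which did not pass the test.

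The step was set against that from 14 to 16 dpp, which shares no mouse with it, to see where it differed from a later step. From 14 to 16 dpp 2594 genes (12.7%) rose and 2296 (11.3%) fell. Of the genes that rose from 10 to 12 dpp, 745 also rose from 14 to 16 dpp, which was 30.4% of the earlier and 28.7% of the later list, and 43 fell (1.76% and 1.87%). Of the genes that fell from 10 to 12 dpp, 839 fell again (43.9% and 36.5%) and 19 rose (0.994% and 0.732%). The difference of the steps, tested in the same limma fit, was above 0 for 1060 genes (5.2%) and below 0 for 1119 (5.49%), and with median-of-ratios scaling for 737 and 1324. With a pseudocount of 0.1 it was above 0 for 1061 genes and below 0 for 931, so which side had more genes depended on these choices. When only genes with 3 TPM in 5 or more of the 10 mice were tested, it was above 0 for 970 genes and below 0 for 469. By its construction that filter leaves out genes that were low at 10 and 12 dpp and rose only later. This drop therefore decides nothing about the balance. Of the 1060 genes, 829 had risen from 10 to 12 dpp, and of the 1119, 191 had fallen.

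Among the named genes with a larger rise in the earlier step, Meiob had a difference of steps of 2.03 (limma adjusted p = 1.35e-07), Rad51ap2 one of 1.67 (limma adjusted p = 3.02e-04), Car7 one of 2.62 (limma adjusted p = 2.19e-06), Tpbgl one of 2.51 (limma adjusted p = 1.35e-07) and Gml one of 2.49 (limma adjusted p = 7.61e-06). For NONMMUG018358 it was 3.50 (limma adjusted p = 3.22e-06), and its means of 51.3 ± 7.35 TPM at 12 dpp and, at 16 dpp, 49.1 ± 4.58 TPM (SD, n = 5) were alike. By contrast Mroh4 and Zmynd10 rose in both steps, with differences of 0.84 and -0.03 that did not pass the test (limma adjusted p = 0.166 and 0.975). The differences furthest below 0 were those of genes that were near 0 at 12 dpp and rose only later. Hspb9, a small heat shock protein of the testis, went from 1.91 ± 0.381 to 1.58 ± 0.554 TPM in the earlier step and from 2.39 ± 1.68 to 65.4 ± 31.2 TPM in the later (SD, n = 5), a difference of -4.47 (limma adjusted p = 2.19e-06). Pebp4 had a difference of -3.99 (limma adjusted p = 8.72e-07). Among the falls, Nnmt had a difference of -1.80 (limma adjusted p = 0.00105), whereas Sel1l3 fell in both steps (difference -0.19, limma adjusted p = 0.667).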

How the data were processed

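The deposited files hold TPM values, made by the authors with Bowtie 1.0.0 and RSEM 1.2.8 from reads of 100 bases, mapped against transcripts of Ensembl 75 and NONCODE 4 and piRNA precursors. The entries of the gene table were read as the natural exponential of log2(TPM + 1), less 1, and converted back as the natural logarithm of the entry plus 1. The converted levels then differed from the summed transcripts by no more than 0.2 TPM in any juvenile mouse for 20288 of the 20368 genes tested. Adult samples come from a table normalized separately. The levels were tested as log2(TPM + 1) with limma 3.58.1 (R 4.3.3), using all 28 juvenile mice, a variance trend with mean level, and Benjamini-Hochberg adjustment. The code was tested on simulated data. Counts of expressed genes were compared with an exact permutation test. Genes were named by rule: the largest changes in fold, TPM and class, stained proteins, and called members of lists of pathway and cell type genes. Members and lists were chosen with earlier results of these data known. Other members were added while the text was written. Alternatives were median-of-ratios scaling, quantile normalization, other filters, another pseudocount, a constant prior variance, a fit of both ages alone, a replicate block, and leaving out mice. Gene positions are those of GENCODE M21 on GRCm38, and promoters are from RefSeq. Tables and figures were made in Python 3.11.15 (pandas 2.3.3, numpy 2.4.6, matplotlib 3.10.9, scipy 1.17.1).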

Additional observations from a re-analysis of the deposited data

Results flagged for a closer look

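Of 416 groups of 5 mice looked at, 15 held a mouse apart from the other 4, where about 1 in 20 is found by chance. At 10 dpp these were Gfra1 in mouse 1 (16.5 TPM, others 8.4 to 10.6), Gm9112 in mouse 5 (18.9, others 6.18 to 8.14), NONMMUG017845 in mouse 5 (0.2, others 0 to 0.05), NONMMUG040410 in mouse 5 (0.91, others 0.24 to 0.42), NONMMUG045860 in mouse 4 (0.57, others 0), Pebp4 in mouse 1 (0.29, others 0), Rpl23a in mouse 1 (1607, others 1846 to 1885) and Sun2 in mouse 2 (80.2, others 74.8 to 76). At 12 dpp they were 1700019A02Rik in mouse 3 (8.33 TPM, others 3.9 to 5.01), Hsd3b6 in mouse 5 (42.7, others 10.3 to 13.3), NONMMUG040419 in mouse 2 (1.1, others 0), Rhox8 in mouse 3 (249, others 267 to 274) and Terb2 in mouse 3 (7.84, others 4.56 to 4.72). Of the summed levels, undifferentiated spermatogonia (733 TPM, others 692 to 703) and pachytene markers (36.8, others 43.1 to 44.9) stood apart in mouse 1 of 10 dpp. The step from 10 to 12 dpp differed most from that of 14 to 16 dpp in 1700123L14Rik (-4.01, limma adjusted p = 5.04e-06), Gm13988 (2.66, limma adjusted p = 2.59e-04), Hspb9 (-4.47, limma adjusted p = 2.19e-06), NONMMUG018358 (3.50, limma adjusted p = 3.22e-06), Pebp4 (-3.99, limma adjusted p = 8.72e-07) and Tom1 (4.25, limma adjusted p = 0.044). The call of Tom1 was lost with median-of-ratios scaling (limma adjusted p = 0.0544), constant prior variance (0.0571), pseudocount 0.1 (0.0554), no filter (0.146), a replicate block (0.143) and mice 1 to 3 only (0.44). It was lost too without mouse 1, 4 or 5 of 10 dpp (0.0849, 0.0824 and 0.082) or mouse 1, 2 or 4 of 12 dpp (0.0747, 0.0795 and 0.0899).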

How the results depend on the processing

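Of 179 named genes, 158 were called, and all 158 kept their direction in each alternative run for them. The filter of 3 TPM in 5 or more of the 10 mice left 11 of the 158 untested. The call held in each alternative run for 127, while 26 lost it in at least 1 alternative other than leaving out a mouse and 27 without 1 mouse. Of 21 genes not called, 6 were called in at least 1 alternative. The number of genes higher at 12 dpp was 2009 and lower 1985 with mice 1 to 3 of each age, and 2445 and 1819 with a replicate block. Without 1 mouse, the higher genes numbered 2058 to 2447 and the lower 1430 to 1952. No pairing of the mice by replicate number is given in the sources used here, and the mice were treated as independent. Deviations from the age means were correlated with r of -0.121, 0.0115, 0.0283, 0.00599 and 0.0164 between mice 1 to 5 of both ages. With 5 mice per age these values cannot decide whether the numbers mark pairs or a batch. With the replicate block the difference of the steps was above 0 for 1135 genes and below 0 for 1271. It was below 0 for 469 genes when only genes that reached 3 TPM in 5 or more of these 10 mice were tested. That filter leaves out, by its construction, genes that were low in these mice and rose only later, so nothing is concluded from this drop. With any TPM above 0 counted as expressed, the difference in the number of genes was -344.8 (exact permutation p = 0.5, n = 5 per age), opposite to the 151.8 found at 3 TPM. Among genes not called, the log2 fold change of Gfra1 was -0.08, and it turned to 0.06 without mouse 1 of 10 dpp and 0.04 without mouse 3 of 12 dpp and was -0.17 without mouse 4 of 10 dpp, that of Tom1 -0.27 and that of Uchl1 -0.0045 with mice 1 to 3 only.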
